A study of Homo sapiens with 2 samples.

Results

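Chromosome 10 held 524 of the 8043 peaks that the anti-Flag antibody gave in LV-HOXA5 cells and 69 of the 635 peaks that it gave in the control cells, LV-HOXA5-NC, so that 593 of 8678 listed regions lay on it. Members were all rows of both peak lists on this chromosome, and they were counted by arm, in bins of 5 Mb and by distance to genes. The chromosome was chosen by a measured value, its number of LV-HOXA5 peaks for the protein-coding genes it carries. Its counts are therefore a description of these libraries, and no test was made of them.

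The peaks came from CUT & Tag in TFK-1 cells, a human cell line of extrahepatic cholangiocarcinoma. LV-HOXA5 cells had received a lentivirus for Flag-tagged HOXA5, LV-HOXA5-NC cells the matching control lentivirus, and both were puromycin-selected stable cells. A single library of 1000000 cells stood for each condition, and differences between them carry no replicate check. With duplicates removed, 15778555 fragments were left for LV-HOXA5 and 1948734 for the control, which is 12.4% of the former, and a peak missing from the control list may be missing for depth alone. The lists hold no measure of the amount of HOXA5, so the labels could not be checked against it.

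HOXA5 is a homeodomain transcription factor, a class of proteins that bind short AT-rich DNA motifs built around the letters TAATTA or parts of it. In CUT & Tag, an antibody tethers a transposase that cuts and tags the DNA near the bound protein, and the transposase also inserts at a lower rate into open chromatin without it. Pericentromeres consist largely of tandem satellite repeats with few genes, and short reads often fit many copies of such repeats, as they do in the repeat arrays near chromosome ends. How reads with several possible places were assigned is not given in the sources used here.

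On the arms 87 of 354 LV-HOXA5 peaks (24.6%) lay within 1 kb of either end of a protein-coding gene. On the arms of the other autosomes 32.6% did. The 250 bases before the start of 7 genes are shown. Among the 15 gene-end peaks of highest fold on the arms, 13 belong to genes with a sequence, and these 7 are the windows that a peak covered whole, with no control peak there. Of all LV-HOXA5 arm peaks of the chromosome only 2.26% overlapped a control peak. The sequences are from RefSeq on GRCh38.p14, written 5′ to 3′ along the gene. Capitals mark CCAAT or its reverse complement ATTGG, and GGGCGG or its reverse complement CCGCCC. None of the 7 windows held TAATTA. GOT1, which encodes the cytosolic aspartate aminotransferase, lies on the minus strand and its window is chr10:99430625-99430874. RSU1, which encodes a suppressor of Ras signalling that acts in cell adhesion, has its window at chr10:16817425-16817674 on the minus strand. The window of ARHGAP19, a gene for a GTPase-activating protein, is chr10:97292638-97292887 on the minus strand. DDX50 encodes a nucleolar RNA helicase and its window is chr10:68901065-68901314 on the plus strand. The window of C10orf143 is chr10:130110831-130111080 on the minus strand. TIAL1 encodes an RNA-binding protein of the stress granule and its window is chr10:119596965-119597214 on the minus strand. The window of VCL, which encodes the adhesion protein vinculin, is chr10:73997866-73998115 on the plus strand.
GOT1: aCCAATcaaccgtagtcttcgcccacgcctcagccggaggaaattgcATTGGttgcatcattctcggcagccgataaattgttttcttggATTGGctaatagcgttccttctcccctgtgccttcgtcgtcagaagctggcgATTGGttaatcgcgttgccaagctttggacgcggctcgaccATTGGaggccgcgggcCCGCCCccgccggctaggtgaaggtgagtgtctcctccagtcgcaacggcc
RSU1: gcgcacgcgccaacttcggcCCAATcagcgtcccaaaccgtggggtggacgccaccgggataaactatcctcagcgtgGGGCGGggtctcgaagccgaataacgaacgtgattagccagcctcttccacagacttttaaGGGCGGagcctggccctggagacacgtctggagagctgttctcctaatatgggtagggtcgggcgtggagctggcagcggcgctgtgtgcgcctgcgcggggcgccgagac
ARHGAP19: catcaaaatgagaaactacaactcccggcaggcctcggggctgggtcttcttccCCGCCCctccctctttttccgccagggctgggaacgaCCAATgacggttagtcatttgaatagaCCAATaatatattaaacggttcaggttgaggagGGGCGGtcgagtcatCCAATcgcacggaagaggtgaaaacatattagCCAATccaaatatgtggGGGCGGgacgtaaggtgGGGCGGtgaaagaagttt
DDX50: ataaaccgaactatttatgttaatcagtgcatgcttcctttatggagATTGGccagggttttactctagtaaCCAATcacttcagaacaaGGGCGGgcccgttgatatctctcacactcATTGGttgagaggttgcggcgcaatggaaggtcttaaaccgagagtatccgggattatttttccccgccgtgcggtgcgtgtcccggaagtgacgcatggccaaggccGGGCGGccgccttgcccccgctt
C10orf143: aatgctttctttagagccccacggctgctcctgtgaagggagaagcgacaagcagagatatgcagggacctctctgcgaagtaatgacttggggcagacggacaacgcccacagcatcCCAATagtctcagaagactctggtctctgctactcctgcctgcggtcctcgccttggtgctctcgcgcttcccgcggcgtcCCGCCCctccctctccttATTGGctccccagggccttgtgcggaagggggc
TIAL1: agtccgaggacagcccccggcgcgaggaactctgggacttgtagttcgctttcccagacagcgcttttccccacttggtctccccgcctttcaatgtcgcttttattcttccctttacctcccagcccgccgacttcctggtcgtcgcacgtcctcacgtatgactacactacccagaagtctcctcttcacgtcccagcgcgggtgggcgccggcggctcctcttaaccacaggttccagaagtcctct
VCL: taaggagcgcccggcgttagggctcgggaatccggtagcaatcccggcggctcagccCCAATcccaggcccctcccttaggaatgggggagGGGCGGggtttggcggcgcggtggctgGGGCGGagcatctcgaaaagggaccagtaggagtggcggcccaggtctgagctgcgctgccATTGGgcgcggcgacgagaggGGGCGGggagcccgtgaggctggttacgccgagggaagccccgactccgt
The summit of the peak lay 136 bases before the start of GOT1, 188 before that of RSU1, 104 before that of ARHGAP19, 167 before that of DDX50, 110 before that of C10orf143 and 194 before that of VCL, and in TIAL1 it lay just inside the gene. These windows were chosen because the peak covers them whole, so a summit near the window follows in part from that choice. Among the remaining genes with a sequence, the summit lay inside TRDMT1, UPF2 and DNAJC9. It lay before the start used for PITRM1 and PANK1, and past the far end of ACSM6. The GOT1 window held 5 CCAAT matches and 1 GGGCGG match, the ARHGAP19 window held 4 of each, and the TIAL1 window held neither.

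Both the pericentromere and the arms of chromosome 10 held more LV-HOXA5 peaks than those of most autosomes. With 734 protein-coding genes, the chromosome had 71.4 LV-HOXA5 peaks per 100 such genes (exact Poisson 95% interval 65.4 to 77.8), against 39.4 over the other autosomes pooled, and it ranked 2 of 22 behind chromosome 21 with 74.5. Within 5 Mb of the arm boundary, set at 40 Mb and called the pericentromere here, lay 170 of the 524 peaks, a share of 32.4% (exact Clopper-Pearson 95% interval 28.4 to 36.6). This was the highest count of the 22 autosomes, the next being 158 on chromosome 5. Per Mb these were 17.0 (14.5 to 19.8) and 15.8, so that the order of the pair is not set by the counts. Over the other autosomes pooled the pericentromere held 20.6% of the peaks. All intervals cover counting error in a single library only.

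Outside the pericentromere, chromosome 10 had 354 peaks over 707 protein-coding genes, 50.1 per 100 genes (45.0 to 55.6), which was also the highest value of the 22. Chromosome 8 followed with 49.4, inside the interval of chromosome 10, so that the order of the pair is not set by these counts. The other autosomes pooled had 32.5 per 100 genes (31.7 to 33.4) on their arms. Per length the arms stood out less, with 2.86 peaks per Mb (2.57 to 3.17) against 2.27, and ranked 4 of 22.

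**Figure D1:**
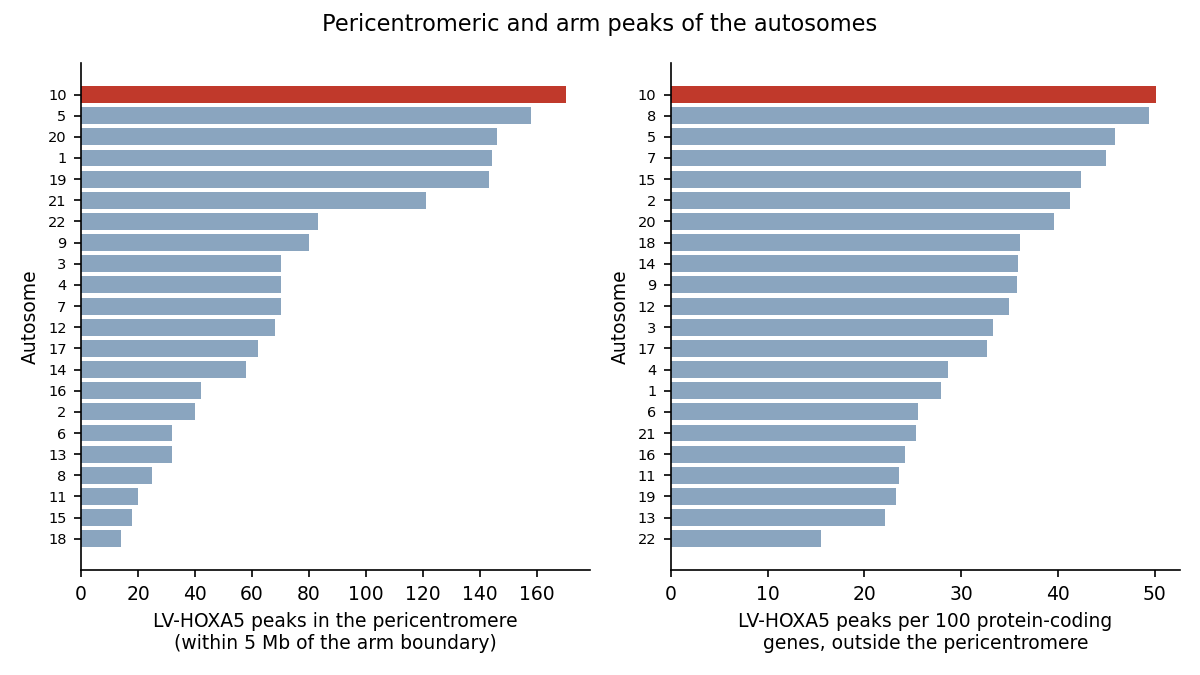
Bars give, for each of the 22 autosomes, the number of LV-HOXA5 peaks within 5 Mb of the arm boundary (left) and the number of LV-HOXA5 peaks per 100 protein-coding genes outside that region (right), with chromosome 10 in red. Chromosome 10 tops both panels, with 170 peaks on the left and 50.1 per 100 genes on the right, and chromosome 8 stands close behind it on the right with 49.4.

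How the surplus divides between the regions was read against the other autosomes. With the rate per gene of the other autosomes' arms, the arms of chromosome 10 would have held 230.0 peaks and held 354, a surplus of 124.0. The pericentromere held 170 against a mean of 71.2 over the other 21 autosomes, a surplus of 98.8. Of the summed surplus of 222.7 peaks, 44.3% thus lay in the pericentromere, 35.0% on the p arm and 20.7% on the q arm. Counted per Mb in place of per gene, the arm surplus was 72.6 peaks and the pericentromere took 57.6% of the sum.

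In the control list the split was different. Of the 69 LV-HOXA5-NC peaks 55 lay in the pericentromere, a share of 79.7% (68.3 to 88.4), where the other autosomes had 11.1 on average, and the 14 on the arms stood beside 11.2 at the rate per gene of the other autosomes' arms. The pericentromere held 94.1% of the surplus of the control list, against 44.3% in LV-HOXA5. The control arms had 1.98 peaks per 100 genes (1.08 to 3.32), beside 1.59 on the arms of the other autosomes. With 14 arm peaks and the lower depth, that interval is too wide to compare the arm surplus of the 2 lists. Leaving out the LV-HOXA5 peaks that overlap a control peak by 1 bp or more, which are 5.16% over all autosomes, left 122 in the pericentromere (mean of the others 61.5) and 346 on the arms (224.4 at the rate of the others). The arm surplus was then 121.6 peaks and the pericentromeric surplus 60.5. Only 8 arm peaks of chromosome 10 overlapped a control peak, so leaving them out could change the arm surplus little. With a control of 12.4% of the depth, this step cannot show how much of the arm surplus is shared.

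Along the chromosome a single 5 Mb bin stood apart in both libraries. The bin from 40 to 45 Mb held 149 LV-HOXA5 peaks (exact Poisson 95% interval 126 to 175), 28.4% of the chromosome, and was level with a bin of chromosome 5 as the highest of 565 full autosomal bins. The other 26 bins held 0 to 27 peaks with a median of 14, while the 539 full bins of the other autosomes had a median of 10 and middle values of 5 to 16. The highest of the other bins of chromosome 10 were those from 30 to 35 Mb with 27 peaks, from 5 to 10 Mb with 24 and from 70 to 75 Mb with 22. The bin from 105 to 110 Mb, which holds 2 protein-coding genes, had no peak, and a count of 0 allows up to 3.69 peaks.

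Control peaks were far more gathered. The bin from 40 to 45 Mb held 52 of the 69 LV-HOXA5-NC peaks (75.4%), the last bin at the q end held 7, and 18 of the 27 bins held none. Gene-end peaks, those within 1 kb of either end of any annotated gene, followed neither, and made up 34.9% of the LV-HOXA5 list over all autosomes. At most 11 lay in a bin (95 to 100 Mb), 10 lay from 70 to 75 Mb and 10 from 100 to 105 Mb, where 76 protein-coding genes lie, and the densest bin had 3.

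**Figure D2:**
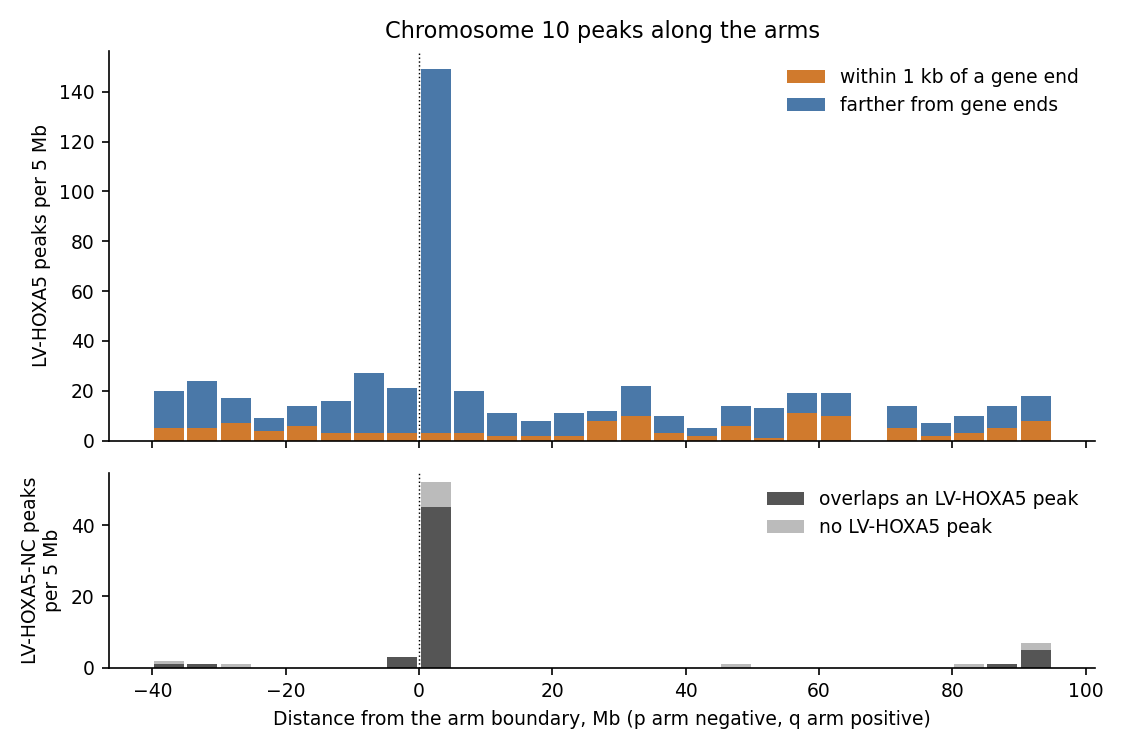
Bars give peaks per 5 Mb bin against distance from the arm boundary in Mb, for LV-HOXA5 (top, split by whether the peak lies within 1 kb of a gene end) and LV-HOXA5-NC (bottom, split by overlap with an LV-HOXA5 peak). The first q arm bin reaches 149 and 52 peaks, and the other bins stay at or below 27 and 7.

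Within the pericentromere, nearly all peaks lay in the longest stretch of the chromosome without any annotated gene, 38719383 to 42149318, which is 3.43 Mb long. It held 152 LV-HOXA5 peaks, 44.3 per Mb (37.6 to 51.9), the highest density among the longest gene-free stretches of the 22 autosomes. Chromosome 20 had 44.2 and chromosome 19 had 38.5, both inside that interval, so the order of these is not set by the counts. By count, the stretch of chromosome 1 had more peaks, 161, and that of chromosome 5 had the same 152. The chromosome 10 stretch held 54 LV-HOXA5-NC peaks, the most of any such stretch (chromosome 1 had 41). The peaks were spread in 3 runs. The main run had its first summit at 39936644 and its last at 41584479 and held 136 peaks, 8640 bp apart at the median. The run from 41841568 to 42104935 held 14 peaks, and a pair of peaks lay alone near 38912545. The 18 pericentromeric peaks beside the stretch were like arm peaks, with 6 at gene ends and 1 shared with the control.

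The stretch also held the highest folds of the chromosome. Fold enrichment, the pileup of fragments at the summit over its local background in that library, had a median of 6.38 in the stretch, 4.74 on the p arm and 4.57 on the q arm. Of the 20 LV-HOXA5 peaks of highest fold on chromosome 10, 17 lay in the stretch and 14 overlapped a control peak, and none lay at a gene end. Of the 100 highest, 63 lay in the stretch and 9 at a gene end.

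The highest pericentromeric fold was at chr10:40980851-40981521, 1167798 bp from the nearest gene, the pseudogene KSR1P1, with 155 fragments of pileup and a fold of 24.9 in LV-HOXA5. The control peak at the same place had a pileup of 80 and a fold of 19.1. At chr10:40134810-40135923 the pileup was 113 and the fold 20.2 in LV-HOXA5, and 67 and 16.5 in LV-HOXA5-NC. Each pileup is at the depth of its own library. Relative to the library totals, the control pileup was 4.18 times that of LV-HOXA5 at the first place and 4.80 times at the second. The remaining 3 of the 5 highest, at chr10:40019568-40020314, chr10:40556263-40557263 and chr10:40892016-40892570, had pileups of 82, 190 and 110 and folds of 20.0, 19.7 and 18.9. All 5 overlapped a control peak.

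Most of the overlap with the control list lay in the stretch. On chromosome 10, 56 of 524 LV-HOXA5 peaks overlapped a control peak (10.7%, exact 95% interval 8.17 to 13.7), where 5.16% did over all autosomes. Of these 56 peaks 47 lay in the gene-free stretch, where the share was 30.9% (23.7 to 38.9). On the arms it was 8 of 354, or 2.26% (0.981 to 4.40), beside 2.43% on the arms of the other autosomes. Read from the control, 47 of its 54 peaks in the stretch (87.0%) overlapped an LV-HOXA5 peak, where 69.1% of control peaks did so over all autosomes. The longest gene-free stretches of the other autosomes were alike in this, with 166 of 177 control peaks shared (93.8%, 89.2 to 96.9). Of their LV-HOXA5 peaks 17.4% were shared, and the 30.9% of chromosome 10 ranked 5 of the 20 stretches with peaks, the highest being 33.3% on chromosome 18.

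Relative to the library totals, shared peaks had higher pileups in the control, but the median folds over local background were closer. Over the 56 pairs the ratio of the pileups, LV-HOXA5-NC over LV-HOXA5, had a median of 0.56, which is 4.53 times the ratio of the library totals (range 1.62 to 7.65), and lay above that ratio in 56 of 56 pairs. The median was 4.63 times over the 47 pairs of the stretch, 2.91 over the 9 pairs elsewhere on the chromosome and 3.60 over the 345 pairs of the other autosomes. The median fold of the 56 pairs was 7.90 in LV-HOXA5 and 7.21 in the control. It was 9.06 and 7.39 in the stretch and 6.89 and 7.02 elsewhere on the chromosome. The fragment added to pileup and background weighs more where background is low. Median background on chromosome 10 was 1.56 in the control and 2.69 in LV-HOXA5, so folds too depend on depth. Pairs had to be called in both libraries, and in the shallow one only high places pass, so these ratios are those of selected places. Within the stretch the shared LV-HOXA5 peaks had a median pileup of 34 fragments (12 to 398) and the others 20 (9 to 132), with much overlap.

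**Figure D3:**
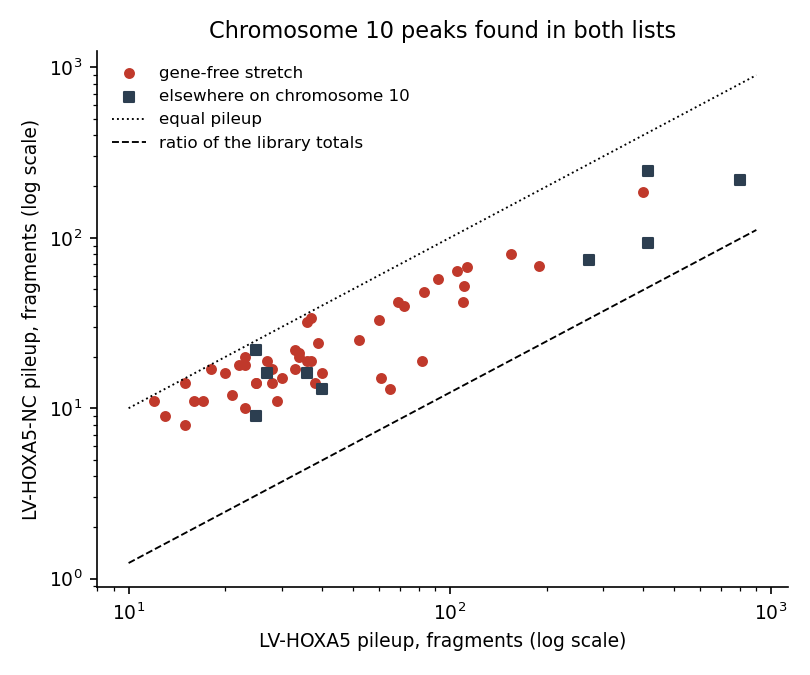
Each point is a chromosome 10 peak found in both lists, with its pileup in fragments in LV-HOXA5 (x, log scale) and LV-HOXA5-NC (y, log scale), red for the gene-free stretch and dark squares for the rest. All 56 points lie above the dashed line, the ratio of the library totals, and below the dotted line of equal pileup.

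Outside the pericentromere the highest folds lay at the chromosome ends. The first peak of the p arm, chr10:10005-10428, had a pileup of 415 and a fold of 21.0 in LV-HOXA5, and the control peak there, chr10:10005-10427, had 247 and 19.0. The last peak of the q arm, chr10:133787148-133787422, had 87 and 17.5 with no control peak. At chr10:133762699-133763868, near DUX4L15, the pileup was 271 and the fold 13.8, and in the control 74 and 9.92. Relative to the library totals, the control pileup was 4.82 times that of LV-HOXA5 at the first p arm peak and 2.21 times near DUX4L15. The other high places of the arms had no control peak, like most arm peaks. The peak at chr10:132364375-132364844 inside LRRC27 had 54 and 10.8, and that at chr10:4671266-4671954 in the non-coding gene LOC105376373 had 28 and 9.38.

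The q end held 11 LV-HOXA5 peaks within 162 kb, among the DUX4L pseudogenes, copies of the DUX4 gene in a subtelomeric repeat array that has a near-identical counterpart on another chromosome. The peak at chr10:133687126-133688877 had the highest pileup of the chromosome, 801 fragments, but a fold of 7.93 over a local background of 100.1, and in the control the values were 217, 7.02 and 30.1. Relative to the library totals, the control pileup there was 2.19 times that of LV-HOXA5. Of the 11 peaks 4 overlapped a control peak and 5 lay at a gene end. The peak beside DUX4L29, chr10:133740772-133741303, was the single gene-end peak of chromosome 10 that overlapped a control peak, with a pileup of 25 and a fold of 4.66 in LV-HOXA5 and of 22 and 7.06 in LV-HOXA5-NC. Here the control pileup was 7.13 times that of LV-HOXA5 relative to the library totals.

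The p arm carried the larger part of the arm surplus. Outside the pericentromere it had 127 peaks over 35 Mb and 151 protein-coding genes, 84.1 per 100 genes (70.1 to 100.1). This was the highest of the 17 autosomes with 20 or more protein-coding genes there, the next being chromosome 20 with 57.6, and the p arms of the other autosomes pooled had 29.8. Per Mb it was 3.63 (3.03 to 4.32) against 2.26 on the other p arms. The q arm had 227 peaks over 556 genes, 40.8 per 100 (35.7 to 46.5) against 34.0 on the other q arms, and 2.56 per Mb (2.24 to 2.91) against 2.28. With the pericentromere counted in, the p arm had 148 peaks, 3.70 per Mb, and the q arm 376, 4.01 per Mb, a ratio of q to p of 1.08 (0.894 to 1.32) that rests on the densest bin and was 0.691 (0.559 to 0.856) without it.

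Peaks of the p arm lay inside genes more than at their ends. On chromosome 10, gene-end peaks were 122 of 524 (23.3%, exact 95% interval 19.7 to 27.1, against 34.9% over all autosomes), with 6 of 170 in the pericentromere (3.53%), 33 of 127 on the p arm (26.0%, 18.6 to 34.5) and 83 of 227 on the q arm (36.6%, 30.3 to 43.2). The p arm share was the lowest of the 18 autosomes with p arm peaks, whose other p arms pooled had 42.0%. On the p arm 64 peaks (50.4%) lay inside a gene but over 1 kb from its ends. Over both arms these were 158 of 354 (44.6%, 39.4 to 50.0), beside 35.9% (34.7 to 37.2) on the arms of the other autosomes. The remaining 80 arm peaks (22.6%) lay outside genes, beside 21.5%.

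Counted at the ends of protein-coding genes alone, the arms of chromosome 10 came close to the rest, with 12.3 such peaks per 100 genes against 10.6, rank 7 of 22. Such peaks were 93 of the 524 (17.7%), against 26.1% over all autosomes. Most of the difference between 50.1 and 32.5 arm peaks per 100 genes was thus in peaks away from these ends.

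**Figure D4:**
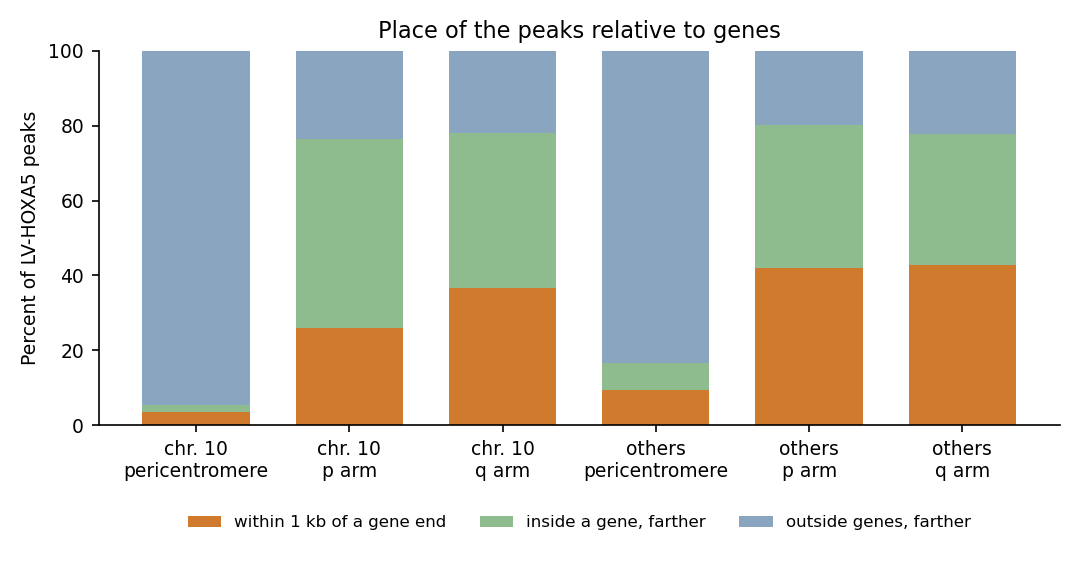
Stacked bars give the percent of LV-HOXA5 peaks that came within 1 kb of a gene end, that lay inside a gene but farther from its ends, and that lay outside genes, for the pericentromere and both arms of chromosome 10 and of the other autosomes pooled. The gene-end share is 26.0% on the p arm of chromosome 10 and 42.0% on the other p arms.

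Groups of nearby peaks were then listed in windows of 300 kb outside the gene-free stretch, chosen after their values were seen. The largest group lay on the p arm at chr10:32985654-33273758 and held 12 peaks. Of these, 6 lay inside NRP1, which encodes neuropilin, a co-receptor for semaphorins and vascular growth factor. The first peak of the group lay 3103 bp from an end of the non-coding gene ITGB1-DT. Its nearest protein-coding gene end was that of ITGB1, at 27424 bp. None of the 12 lay at a gene end or overlapped a control peak, beside 32.8% and 2.26% of all arm peaks. Their folds ran from 3.33 to 6.29 with pileups of 14 to 36. Over its whole length NRP1 was touched by 7 peaks, as was its neighbour PARD3, which encodes a cell polarity protein, and no protein-coding gene of the chromosome was touched by more. ANXA8, an annexin gene with near-identical copies nearby, was touched by 6, which is uncertain since reads of the copies can be exchanged.

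The group at chr10:4662863-4848180 held 7 peaks in a span with the long non-coding RNA gene MANCR and the aldo-keto reductase gene AKR1E2. Their folds were 3.69 to 9.38 with a median of 8.35, the highest median of these groups. Only 1 of the 7 lay inside AKR1E2, with a fold of 4.07. Another p arm group, of 7 peaks, lay at chr10:21259321-21534230. Of these, 3 touched NEBL, which encodes an actin-binding protein, and 1 touched MLLT10, a chromatin regulator gene found in leukaemia fusions. On the q arm 7 peaks lay at chr10:52313934-52487553, with folds of 3.34 to 8.47. Of these, 1 touched DKK1, which encodes a secreted inhibitor of WNT signalling, and it had the lowest fold, 3.34. The same span holds the non-coding genes PRKG1-AS1 and LNCAROD. None of these 3 groups held a peak shared with the control, beside 2.26% of all arm peaks.

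Local background varied less along the chromosome than the number of peaks. It was recovered for each peak as (pileup + 1) / fold − 1, in fragments. Its median was 2.69 (95% interval 2.55 to 2.78) on chromosome 10 and 2.53 on the other autosomes, a ratio of 1.06 (1.00 to 1.10), and chromosome 10 ranked 7 of 22 between 1.67 on chromosome 13 and 3.64 on chromosome 17. It was 2.51 on the p arm, 2.69 on the q arm and 2.71 in the densest bin. Over the other bins the medians ran from 1.80 to 4.34, the highest in the last bin of the q arm.

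Inside the gene-free stretch the background was uneven. In the main run of 136 peaks its median was 2.64 and in the run of 14 peaks beside the q arm it was 9.44. At the same time 18 of the 152 peaks of the stretch (11.8%) had the lowest value that the library allows, the genome-wide level of 1.438 fragments, against 5 of 127 on the p arm (3.94%) and 7 of 227 on the q arm (3.08%).

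**Figure D5:**
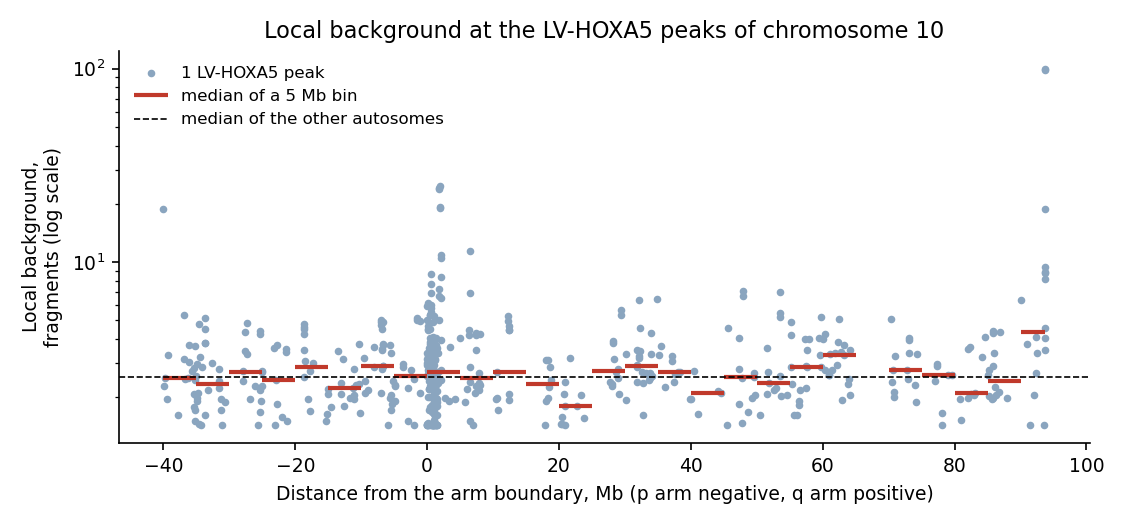
Each point is an LV-HOXA5 peak of chromosome 10, with its local background in fragments (log scale) against distance from the arm boundary in Mb, and red lines give the median of each 5 Mb bin. The bin medians stay between 1.80 and 4.34 around the median of the other autosomes, 2.53 (dashed), and single peaks near the boundary and at the q end rise above 10.

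Gene-end peaks of the arms were of moderate height. The 15 of highest fold at protein-coding genes had folds of 6.08 to 8.14 and pileups of 19 to 46 fragments. None overlapped a control peak, and over all arm peaks of the chromosome only 2.26% did. GOT1 led with a pileup of 40 and a fold of 8.14, followed by RSU1 with 34 and 7.64. TRDMT1, which encodes a tRNA methyltransferase, had 20 and 7.38, ARHGAP19 35 and 7.18, and DDX50 25 and 6.85. These folds lay below every one of the 5 highest of the pericentromere.

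The rest of the 15 came in a narrow range. UPF2, a factor of nonsense-mediated mRNA decay, had a fold of 6.43, the RNA-binding protein gene TIAL1 had 6.37, and DNAJC9, a histone co-chaperone gene, had 6.29. PITRM1, a mitochondrial protease gene, had 6.25, and PANK1, a pantothenate kinase gene of coenzyme A synthesis, 6.20. VCL had 6.19 and SLF2, a gene of the chromosome maintenance machinery, 6.08. C10orf143 had 6.41 and EDRF1 6.76 with the peak 25 bp away. The ACSM6 peak, with 6.47, lay 352 bp beyond the far end of that gene and far from the start used for its promoter.

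By gene, chromosome 10 was close to the rest of the genome. A peak of the LV-HOXA5 list came within 1 kb of either end in 13.2% of the protein-coding genes of all autosomes. On chromosome 10 it was 106 of 734 (14.4%, exact 95% interval 12.0 to 17.2), with 23 of 151 on the p arm (15.2%, 9.91 to 22.0) and 76 of 556 on the q arm (13.7%, 10.9 to 16.8). The pericentromere, which had the most peaks per gene, had 7 of 27, namely the ubiquitin ligase scaffold gene CUL2, the cAMP-responsive factor gene CREM, the zinc finger genes ZNF25, ZNF33A and ZNF33B, the splicing factor gene HNRNPF and DEPP1. ZNF33A and ZNF33B are close copies, so their reads may be exchanged.

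In the cell cycle and DNA replication list, 7 of 19 genes had a peak within 1 kb (36.8%, exact 95% interval 16.3 to 61.6), beside 14.4% over the chromosome. The list was put together with earlier results of these data known, so the share describes the listed genes and is no test of enrichment. CDK1, the mitotic kinase, had a peak 58 bp inside its end with a pileup of 11 and a fold of 3.90. KIF20B, a mitotic kinesin gene, had 14 and 4.89, and MCM10, a replication initiation factor gene, 13 and 4.72. BUB3, a spindle checkpoint gene, had 14 and 4.83, and SMC3, a cohesin subunit gene, 15 and 4.71. HELLS, a chromatin remodeller gene, had 11 and 3.91, and MMS19, a gene of iron-sulphur protein assembly, 16 and 4.37. The median over all arm peaks was 17 for the pileup and 4.63 for the fold, so that all 7 pileups lay below it and 4 of the 7 folds above it. None of the 7 overlapped a control peak, beside 2.26% of all arm peaks. The nearest peak lay 18840 bp from KIF11, 155906 bp from MKI67, the Ki-67 gene, and 52625 bp from MASTL.

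Of the 24 growth control and cancer genes 5 had a peak within 1 kb (20.8%, 7.13 to 42.2). SUFU, an inhibitor of Hedgehog signalling, had the highest, with a pileup of 34 and a fold of 5.74. VIM, the vimentin gene, had 18 and 4.02, MLLT10 16 and 4.18, ABI1, an actin regulator gene, 13 and 4.16, and PDCD4, a translation inhibitor gene, 13 and 4.47. KAT6B, a histone acetyltransferase gene, missed the distance with a peak of 58 and 7.91 at 1186 bp, and TCF7L2, a WNT effector gene, held 3 peaks inside. The nearest peak lay 35277 bp from KLF6, 290973 bp from GATA3 and 111547 bp from MXI1, a gene of a MAX partner.

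Genes of homeobox and other developmental regulators had the fewest, 1 of 24 (4.17%, 0.105 to 21.1), which was DKK1 with a pileup of 20 and a fold of 3.34. PITX3 had its nearest peak at 3715 bp, with 35 and 7.42, HMX2 at 3438 bp, EGR2 at 7118 bp and HHEX at 15463 bp. These peaks also stand by other genes. That of HMX2 is the BUB3 peak counted above, and that of HHEX is also the nearest to KIF11. That of EGR2 covers an end of ADO, and that of PITX3 lies inside GBF1. Of the 16 liver and bile duct genes 2 had a peak within 1 kb (12.5%, 1.55 to 38.3), GOT1 and PLAU, the urokinase gene, with 20 and 3.96. ABCC2, a bile canalicular exporter gene, had its nearest peak at 2349 bp. The aldo-keto reductase genes AKR1C2 and AKR1C3 held 1 and 2 peaks inside, which is uncertain since the family is of close copies. The lists were put together with earlier results of these data known.

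Of the upstream windows of chromosome 10 genes with a sequence, 81 were touched by an LV-HOXA5 peak and 569 were not. TAATTA, its own reverse complement, was in 0 of the 81 (exact 95% interval 0 to 4.45%), in 3.69% of the 569 and in 3.19% of 15101 windows of all autosomes. Touched windows of the other autosomes had it in 1.72%, inside the interval of the 81. CCAAT on either strand was in 47 of 81 (58.0%, 46.5 to 68.9), in 29.7% of the untouched windows and in 34.1% over all autosomes, while touched windows of the other autosomes had 53.2%. GGGCGG on either strand was in 71.6% of the 81, in 52.9% of the 569 and in 56.3% over all, beside 72.7% in touched windows elsewhere. The median share of G and C was 63.2% in both sets of chromosome 10, but its spread was 57.6 to 69.2% in touched and 51.2 to 71.2% in untouched windows. The median number of CG dinucleotides was 19 (spread 16 to 24) in touched and 17 (5 to 27) in untouched windows. The sets were thus not matched for base composition. Matches of CCAAT and GGGCGG may overlap, and a match describes the letters of the window and not a bound site.

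Control peaks without an LV-HOXA5 partner were low. They were 13 of 69, 7 of them in the gene-free stretch, with pileups of 4 to 19 and folds of 2.93 to 6.53. The other 56 (81.2%) had a partner, against 69.1% of control peaks over all autosomes. Over all autosomes 11.5% of control peaks were gene-end peaks. On chromosome 10 these were 2 of 69, the one beside DUX4L29 and one at chr10:1038745-1039049, 103 bp from IDI1, a gene of isoprenoid synthesis, with a pileup of 7 and a fold of 5.72. IDI1 was the single protein-coding gene of the chromosome with a control peak within 1 kb, and no LV-HOXA5 peak overlapped that peak.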

How the data were processed

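Groups follow the sample labels, with 1 library in each of the 2 conditions. The authors, per the file headers and the submitters' processing notes, used fastp, Bowtie2, deepTools, MACS2 and ChIPseeker on GRCh38. Peak calling was by MACS 2.2.7.1, separately for both libraries, at a q-value of 0.05 without a control. In the deposited tables the pileup signal is a number of fragments at the summit at the depth of its library, the ratio is the fold enrichment over local background, and significance is given as −log10 of the p-value and of the q-value. Another deposited form, with an integer score, held the same position and fold for 8043 of 8043 and 635 of 635 peaks. Since lists are called at these depths, fewer peaks pass in the shallow library. Over the shared pairs, pileups were compared relative to the library totals. Pileups of single peaks are given at the depth of each library.

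Peaks were counted in 5 Mb bins, by arm (boundary rounded to 1 Mb, from general knowledge of the karyotype) and by distance to RefSeq genes of GRCh38.p14 with Python 3.11.15, pandas 2.3.3, NumPy 2.4.6, SciPy 1.17.1 and Matplotlib 3.10.9. Arm lengths run to the last gene or peak. Shares have exact Clopper-Pearson and counts exact Poisson 95% intervals. Counting was tested on simulated data. Named were the 15 gene-end peaks of highest fold on the arms, the 5 of highest fold inside and outside the pericentromere, the 5 shared peaks of highest control fold, and the 83 genes of 4 lists. Members and lists were chosen with earlier results of these data known. Alternatives changed the threshold, the fold limit, the gene-end distance, the pericentromere, the shared peaks and the bins. A result on 1 listed gene is not reported here.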

Additional observations from a re-analysis of the deposited data

How the results depend on the processing

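No paired analysis was possible because each condition had 1 library. Of 49 alternatives, 28 stayed within the counting interval of the value reported or, for the gene count, close to it, 18 moved beyond it and 3 turned the order of the arms. Not all of the 28 could move. The densest bin lies inside the pericentromere, so leaving it out could not change the rate outside. For the gene count, values from 93 to 125 in place of 106 were taken as close. The 3 that took the longest gene-free stretch as the pericentromere were chosen after seeing the data, and all 3 stayed within the interval.

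At a q-value of 0.001 or less the peaks per 100 protein-coding genes were 61.4, and 41.3 outside the pericentromere. At or above the median fold of the list, which keeps fewer peaks by construction, they were 37.7 and 21.6, the pericentromere held 44.8% of peaks, 14.4% overlapped a control peak, and 50 protein-coding genes had a peak within 1 kb in place of 106. Without the peaks that overlap a control peak, the peaks per 100 genes were 63.8, the pericentromere held 26.1%, and the ratio of q to p arm per Mb was 0.969 in place of 1.08. Without the densest bin these 3 values were 52.2, 5.60% and 0.691, while 31.7% of peaks lay at a gene end and 2.93% overlapped a control peak. Per gene in place of per Mb the ratio of the arms was 0.720. The pericentromere held 28.4% at 2 Mb to either side and 41.4% at 10 Mb. Gene-end peaks were 30.2% within 3 kb and 17.7% at protein-coding genes alone. Over bins, the background ratio was 1.12.

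On the arms, peaks per 100 genes ranked 1 or 2 of 22 in each of 12 combinations of peak filter and pericentromere, behind chromosome 21 or 8 where 2. Each condition had 1 library, the control at 12.4% of the depth, and the part of depth in the shared shares was not tested. Placement of reads that fit several repeat copies was not tested either.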
